A study of Mus musculus with 6 samples.

Results

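The genes described here are 40 genes of fat storage, lipolysis and lipogenesis, chosen by symbol for their place in lipid metabolism, of the 20076 genes measured in primary ovarian tumors of the mouse. All 40 were in the table and all were among the 19667 genes tested. Tumors had grown for 6 weeks after bilateral injection under the ovarian bursa of the mouse ovarian cancer line ID8 *Trp53*-/- *Brca1*-/-, in which CRISPR-Cas9 had been used to knock both genes out, and the same cells were used in every mouse. The hosts were C57BL/6 mice of 6 to 10 weeks, either wild-type (WT, 3 tumors) or lacking *Tgm2*, the gene of transglutaminase 2, in the whole body (*Tgm2* knockout, 3 tumors). The knockout was in the host alone, so the cancer cells kept their own *Tgm2*. Bulk polyA RNA was sequenced, and the values are normalized counts whose totals ranged from 32316613 to 37717165 per tumor. In the text below, 3 values in a row are those of tumors 1, 2 and 3 of a group. The labels call the samples cancer cells, but the tumors also held transcripts of adipocytes (*Adipoq*, between 786 and 9593), macrophages (*Lyz2*, between 13429 and 52341) and endothelium (*Pecam1*, between 1829.7 and 3640.4) beside the epithelial keratin *Krt8* (between 10373 and 21948), so whole tumor tissue was measured.

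Fat cells keep triglyceride in a lipid droplet whose surface is coated by perilipins. Fatty acids reach the droplet from the blood, where lipoprotein lipase frees them, or from glucose through lipogenesis, and lipolysis releases them again through a chain of lipases. PPARγ and C/EBPα switch on most of this machinery in adipocytes, while SREBP1 and ChREBP drive lipogenesis in many cell types. Adipose tissue surrounds the mouse ovary, and ovarian cancer is known to grow in fat-rich sites of the abdomen. Several members, such as *Plin2*, *Fabp5*, *Scd2* and *Srebf1*, are also made by many cells that are not adipocytes.

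*Tgm2* was measured first as a check of the genotype labels. It had 14978, 12155 and 13179.7 normalized counts in WT and 5853, 6071 and 8157 in *Tgm2* knockout tumors, a log2 fold change of -1.02 (knockout minus WT, standard error 0.22). The groups did not overlap (two-sided exact permutation test, p = 0.1, which is the smallest p that 3 tumors against 3 can give).

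The machinery of fat storage and release was higher in *Tgm2* knockout tumors in many of its genes, with the droplet proteins *Plin1* and *Cidec* and the lipase-related *Pnpla3* showing some of the greatest differences. At an unadjusted p of 0.05 from limma, 21 of the 40 members had more RNA in *Tgm2* knockout than in WT tumors and 0 had less, where 3.40% of all genes tested were higher and 2.38% were lower. In 20 members every *Tgm2* knockout tumor lay above every WT tumor, against 5.18% of all genes, and in 0 members every knockout tumor lay below (5.33% of all genes). The median log2 fold change was 0.88 over the members and -0.03 over all genes tested, and 37 members had a positive value. None of these differences passed the limits of the study, an adjusted p of 0.05 with an absolute log2 fold change of 1: 0 members did, beside 0.102% of all genes that were higher and 0% that were lower. The smallest adjusted p of a member was 0.0959 (*Plin4*, limma with Benjamini-Hochberg adjustment), and the 21 members ranged up to an adjusted p of 0.859. In bulk samples, fewer cells of a type and less RNA per cell cannot be told apart, and the same holds for more of either.

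**Figure D1:**
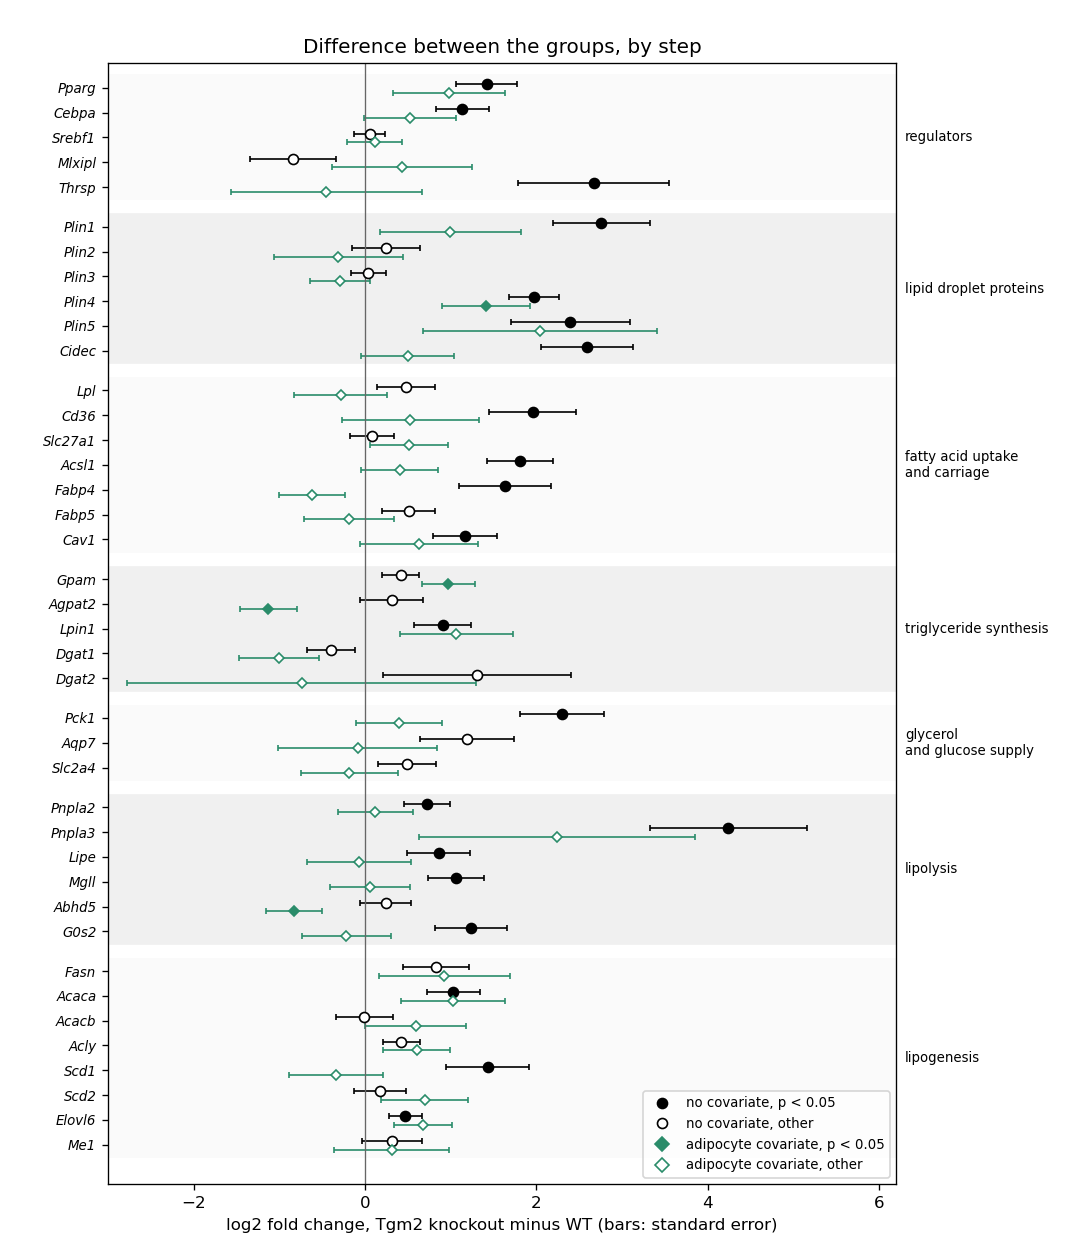
Log2 fold change of each of the 40 members (knockout minus WT, 3 tumors per group, bars are standard errors), by step. Black circles come from the fit without a covariate and green diamonds from the fit with the mean of 12 adipocyte identity genes as a covariate; filled symbols have an unadjusted p under 0.05, which 21 members reach without the covariate and 4 with it.

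The amounts of the adipocyte identity genes moved with these values. With the mean log2 value of 12 such genes in each tumor added to the model, 2 members were higher (*Plin4*, and *Gpam*, which is not among the 21) and 2 were lower (*Agpat2* and *Abhd5*) at an unadjusted p of 0.05. In the same fit 4.21% of all genes were higher and 5.17% were lower, so the counts of members past that p were near the background in both directions. The median log2 fold change was then 0.40 over the members and 0.03 over all genes. Of the 21 members, 5 then had a negative log2 fold change (*Thrsp*, *Fabp4*, *Lipe*, *G0s2* and *Scd1*). Others had a smaller positive value, such as *Cidec* (2.59, then 0.50). *Plin5* (2.40, then 2.04), *Acaca* (1.03 in both fits), *Lpin1* (0.90, then 1.07) and *Elovl6* (0.47, then 0.68) kept a log2 fold change about as large or larger. These no longer passed an unadjusted p of 0.05, with larger standard errors. That mean itself was higher in *Tgm2* knockout tumors, and 6 tumors leave few degrees of freedom for 1 more term. The part of adipocyte content in each difference below was otherwise not tested.

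The stretches just upstream of *Plin4*, *Plin1* and *Cidec* are shown because these were the 3 members with the smallest p that have an upstream entry in RefSeq (GRCm38.p6, all on the minus strand, written 5′ to 3′ and ending at the base before the annotated exon at that start). Capitals mark a match to TTGCNNAA, a C/EBP-type motif, on either strand.
*Plin4*, chr17:56109804-56110032: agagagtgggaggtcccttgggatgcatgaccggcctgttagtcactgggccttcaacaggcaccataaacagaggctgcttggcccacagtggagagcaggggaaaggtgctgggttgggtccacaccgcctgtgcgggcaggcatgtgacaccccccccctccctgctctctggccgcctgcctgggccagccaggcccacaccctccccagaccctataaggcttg
*Plin1*, chr7:79732904-79733026: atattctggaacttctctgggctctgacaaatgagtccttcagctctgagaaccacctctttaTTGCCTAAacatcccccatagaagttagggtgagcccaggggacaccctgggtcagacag
*Cidec*, start at the end of the gene, chr6:113435761-113436010: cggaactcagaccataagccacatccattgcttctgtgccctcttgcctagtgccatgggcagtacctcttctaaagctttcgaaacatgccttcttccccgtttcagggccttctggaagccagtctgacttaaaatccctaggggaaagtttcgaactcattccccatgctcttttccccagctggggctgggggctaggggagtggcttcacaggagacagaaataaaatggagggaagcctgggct
*Cidec*, second start inside the gene, chr6:113434765-113435014: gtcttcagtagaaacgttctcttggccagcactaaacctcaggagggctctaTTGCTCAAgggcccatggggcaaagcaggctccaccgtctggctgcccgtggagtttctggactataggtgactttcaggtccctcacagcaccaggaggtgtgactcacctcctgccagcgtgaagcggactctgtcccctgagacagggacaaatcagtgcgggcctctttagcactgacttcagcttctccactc
*Plin1* and the inner start of *Cidec* each held 1 match, and the stretches of *Plin4* and of the outer start of *Cidec* held 0. That outer start, labelled above as the end of the gene, is its 5′ end. On the minus strand this is the highest coordinate of *Cidec* (113435760). Of the 32 members with an entry, 3 (*Pparg*, *Plin1* and *Cidec*) held TTGCNNAA within the 250 bases upstream of a start, 9.38% beside 10.8% of the 27025 genes with an entry. AGGTCA, the core read by many nuclear receptors, was found in 10 of 32 (31.25% against 15.8%), the E-box CACGTG in 4 (12.5% against 6.86%), CCAAT in 16 (against 37.5% of all genes) and TATAAA in 4 (12.5% against 14.3%), each on both strands. These are matches of letters, and binding was not measured.

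Among the regulators, the adipocyte factors were higher in *Tgm2* knockout tumors and the general lipogenic factor *Srebf1* lay within a narrow range in all tumors. *Pparg*, which encodes the master regulator of fat cells PPARγ and lies on chromosome 6 from 115360951 to 115490399 (plus strand, GRCm38), had 142, 131 and 157 normalized counts in WT and 368, 557 and 276 in *Tgm2* knockout tumors. Its log2 fold change was 1.42 (standard error 0.35), and the lowest knockout tumor was well above the highest WT tumor. *Cebpa*, its partner, had 1786, 1283 and 931 in WT and 2015, 3709 and 3018 in knockout tumors (log2 fold change 1.13, standard error 0.31), again without overlap but with knockout tumor 1 close to WT tumor 1. *Thrsp*, a small nuclear protein that promotes lipogenesis, measured 59.4, 478 and 393 against 486, 2893 and 2088 (2.67, standard error 0.88). For *Thrsp*, knockout tumor 1 barely passed WT tumor 2, and the lowest value of all was in WT tumor 1. *Srebf1*, the most abundant regulator, which encodes the SREBP1 factor of lipogenesis, had 3399, 3071 and 3993 in WT and 3507, 3593 and 3709 in knockout tumors (log2 fold change 0.05, standard error 0.18). *Mlxipl*, the gene of the glucose-sensing factor ChREBP, was the one regulator with a negative log2 fold change (-0.84, standard error 0.50), and its groups overlapped. That value was -0.29 without WT tumor 3, which held the highest level, and 0.43 with the adipocyte covariate.

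The lipid droplet proteins had the highest median of all steps, 2.18 on the log2 scale, and fell into those with a high fold change and those without. With the adipocyte covariate that median was 0.75. *Plin1*, the perilipin that guards the droplet of adipocytes (chromosome 7, 79720218 to 79732903), had 336, 512 and 125 normalized counts in WT and 1107, 3501 and 1729.5 in *Tgm2* knockout tumors, a log2 fold change of 2.76 (standard error 0.57). *Cidec*, which makes the large single droplet of white fat cells by fusion (chromosome 6, 113424634 to 113435760), had 582, 1085 and 367 in WT and 1769.6, 7132 and 4051 in knockout tumors (2.59, standard error 0.54). In both genes every knockout tumor was above every WT tumor, knockout tumor 2 was the highest and WT tumor 3 the lowest. *Plin4*, a perilipin of small new droplets on chromosome 17 (56100591 to 56109803), had the smallest p of the members: it measured 584, 395 and 378 against 1317, 2454 and 1631 (1.97, standard error 0.30). The lowest knockout tumor lay clear of the highest WT tumor. With the adipocyte covariate its log2 fold change was 1.41 (adjusted p = 0.494 from limma). *Plin5*, its neighbour on the same strand (56111601 to 56117596) and the perilipin of tissues that burn fat, was rare, with 4.73, 7.29 and 11.2 in WT and 54.9, 65.7 and 21.6 in knockout tumors (2.40, standard error 0.70). *Plin2*, the droplet protein of most cell types including macrophages, was the most abundant, with 10841, 7554 and 3686 against 5688, 9696 and 9049 (0.24, standard error 0.40). Its highest tumor was WT tumor 1, and the groups overlapped. *Plin3*, a perilipin found in nearly every cell, had a log2 fold change of 0.04 (standard error 0.20).

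Of the genes of fatty acid uptake and carriage, 4 of 7 were higher at an unadjusted p of 0.05, and each of these 4 was highest in knockout tumor 2. *Cd36*, the fatty acid translocase of adipocytes, macrophages and endothelium, had 1995, 1464 and 672 normalized counts in WT and 2540.1, 8781 and 5149 in *Tgm2* knockout tumors (log2 fold change 1.96, standard error 0.51). *Acsl1*, which links fatty acids to coenzyme A for storage, had 878, 843 and 673 against 1506, 4853 and 2929.5 (1.81, standard error 0.39). Neither gene had overlapping groups, and knockout tumor 1 was the closest to WT in each. *Fabp4*, the abundant fatty acid carrier of adipocytes, measured 3559, 6353 and 2987 in WT and 5817, 28003 and 12365 in knockout tumors (1.63, standard error 0.54), so that WT tumor 2 exceeded knockout tumor 1. *Cav1*, the gene of caveolin 1, which coats the surface pits of adipocytes and endothelium, had 3766, 3689 and 1477 against 5468, 7786 and 5441 (1.17, standard error 0.37), without overlap. *Lpl*, the lipase that frees fatty acids from blood lipoproteins, was the most abundant of the step with 28141, 27856 and 18297 in WT and 22941, 41918 and 40133 in knockout tumors (0.48, standard error 0.34). Knockout tumor 1 lay below WT tumors 1 and 2 here. The *Lpl* value was 0.27 without WT tumor 3 and 0.76 without knockout tumor 1. *Fabp5*, the carrier of macrophages and epithelia, had a log2 fold change of 0.51 (standard error 0.31) and the fatty acid transporter *Slc27a1* 0.08 (standard error 0.26), both with overlap. The *Fabp5* value was 0.25 without WT tumor 3 and also 0.25 without knockout tumor 2.

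Triglyceride synthesis had a median log2 fold change of 0.42, and 1 of its 5 genes passed an unadjusted p of 0.05. The median was 0.13 without WT tumor 1 and 0.69 without knockout tumor 1, and it was -0.74 with the adipocyte covariate. That gene was *Lpin1*, whose product removes the phosphate from phosphatidic acid, with 767, 366 and 814 normalized counts in WT and 933, 1202 and 1337 in *Tgm2* knockout tumors (0.90, standard error 0.34). *Gpam*, the mitochondrial enzyme of the first step, was the most abundant, with 5188, 3931 and 4091 against 6791, 4782 and 6105 (0.42, standard error 0.22). Knockout tumor 2 was the lowest of its group for *Gpam* and lay below WT tumor 1. *Agpat2*, the second acylation enzyme, had 0.31 (standard error 0.37). Of the 2 enzymes of the last step, *Dgat1* had a log2 fold change of -0.39 (standard error 0.28) and *Dgat2* 1.31 (standard error 1.10). The *Dgat2* value was -0.018 without WT tumor 1, 2.57 without WT tumor 3 and -0.74 with the adipocyte covariate. *Dgat2* had the largest standard error of the members: it ran from 104 in WT tumor 1 to 3789 in WT tumor 3, a range that held all 3 knockout tumors.

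The genes that supply glycerol and glucose to the adipocyte were highest in knockout tumor 2 in 3 of 3 cases. *Pck1*, whose enzyme PEPCK makes glycerol 3-phosphate for triglyceride in fat cells, had 268, 309 and 207 normalized counts in WT and 602, 2696 and 1266 in *Tgm2* knockout tumors (log2 fold change 2.30, standard error 0.49), with no overlap. *Aqp7*, the glycerol channel of adipocytes, was low (between 32.8 and 131) and had a log2 fold change of 1.19 (standard error 0.55). Its groups did not overlap, yet its unadjusted limma p missed 0.05. *Slc2a4*, the insulin-responsive glucose transporter GLUT4, had 0.49 (standard error 0.33), with overlap.

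In lipolysis 5 of 6 members were past an unadjusted p of 0.05, or 2 of 6 without knockout tumor 2, and all 6 genes were highest in knockout tumor 2. Without knockout tumor 2, 563 of all genes were higher at that p, beside 668 with all tumors. With the adipocyte covariate 0 of the 6 were higher and 1 (*Abhd5*) was lower, where 5.17% of all genes were lower, and *Lipe* (-0.070) and *G0s2* (-0.22) had negative log2 fold changes. *Pnpla2* encodes ATGL, the lipase that takes the first fatty acid off triglyceride, and had 3045, 2283 and 2766 normalized counts in WT and 3061, 5835 and 4831 in *Tgm2* knockout tumors (log2 fold change 0.72, standard error 0.27). Knockout tumor 1 and WT tumor 1 were nearly equal, so that the groups were separated by a narrow gap. *Lipe*, the hormone-sensitive lipase that acts next, had 1149, 1035 and 1959 against 1446, 3539 and 2710.1 (0.86, standard error 0.37), with WT tumor 3 above knockout tumor 1. *Mgll*, which finishes the chain at monoglyceride, had 812, 714 and 935 against 1106, 2787 and 1600.5 (1.06, standard error 0.33) and no overlap. The brake of the chain was higher too: *G0s2*, which inhibits ATGL, had 299, 360.0 and 247 in WT and 455, 1364 and 560.5 in knockout tumors (1.23, standard error 0.42). *Abhd5*, the activator of ATGL, had 0.24 (standard error 0.30) with overlap. *Pnpla3*, a droplet lipase relative known from fatty liver (chromosome 15, 84167837 to 84187236), had the highest log2 fold change of the members, 4.24 (standard error 0.92). It measured 1.01, 19.8 and 12.9 in WT and 129.7, 260.5 and 113 in knockout tumors, so each WT value rests on few reads and the fold depends on them.

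Lipogenesis showed a different order of the tumors, since 6 of its 8 genes were highest in knockout tumor 3. *Acaca*, which encodes the enzyme that commits acetyl-CoA to fatty acid synthesis, had 2248, 1412 and 1208 normalized counts in WT and 2436, 2924 and 4589 in *Tgm2* knockout tumors (log2 fold change 1.03, standard error 0.31). With the adipocyte covariate its log2 fold change was 1.03 with a standard error of 0.61 and no longer passed an unadjusted p of 0.05. *Elovl6*, which lengthens fatty acids, had 783, 779 and 787 against 1194, 1005 and 1061 (0.47, standard error 0.19), the tightest WT values of the step, but passed an unadjusted p of 0.05 in 0 of the 6 fits without 1 tumor. *Scd1*, the desaturase of adipocytes and liver, was highest in knockout tumor 2, with 9882, 10256 and 7023 in WT and 10637, 44733 and 29296 in knockout tumors (1.43, standard error 0.49), and its log2 fold change was -0.34 with the covariate. Knockout tumor 1 was close to WT for *Scd1*, and the order of the knockout tumors was that of the lipolysis genes *Lipe* and *Mgll*. *Scd2*, the desaturase of many other tissues, was the most abundant of all 40 members, with 28156, 27092 and 38022 against 38507, 26289 and 40991 (0.17, standard error 0.31). How reads that match both desaturases were split between them was not tested. *Fasn*, the fatty acid synthase, had a log2 fold change of 0.83 (standard error 0.39), or 0.48 without knockout tumor 3, *Acly*, which supplies acetyl-CoA from citrate, 0.42 (standard error 0.22), and *Me1*, which supplies NADPH, 0.32 (standard error 0.35). *Acacb*, whose enzyme makes the malonyl-CoA that restrains fat burning, had -0.01 (standard error 0.33). All 4 had overlapping groups.

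**Figure D2:**
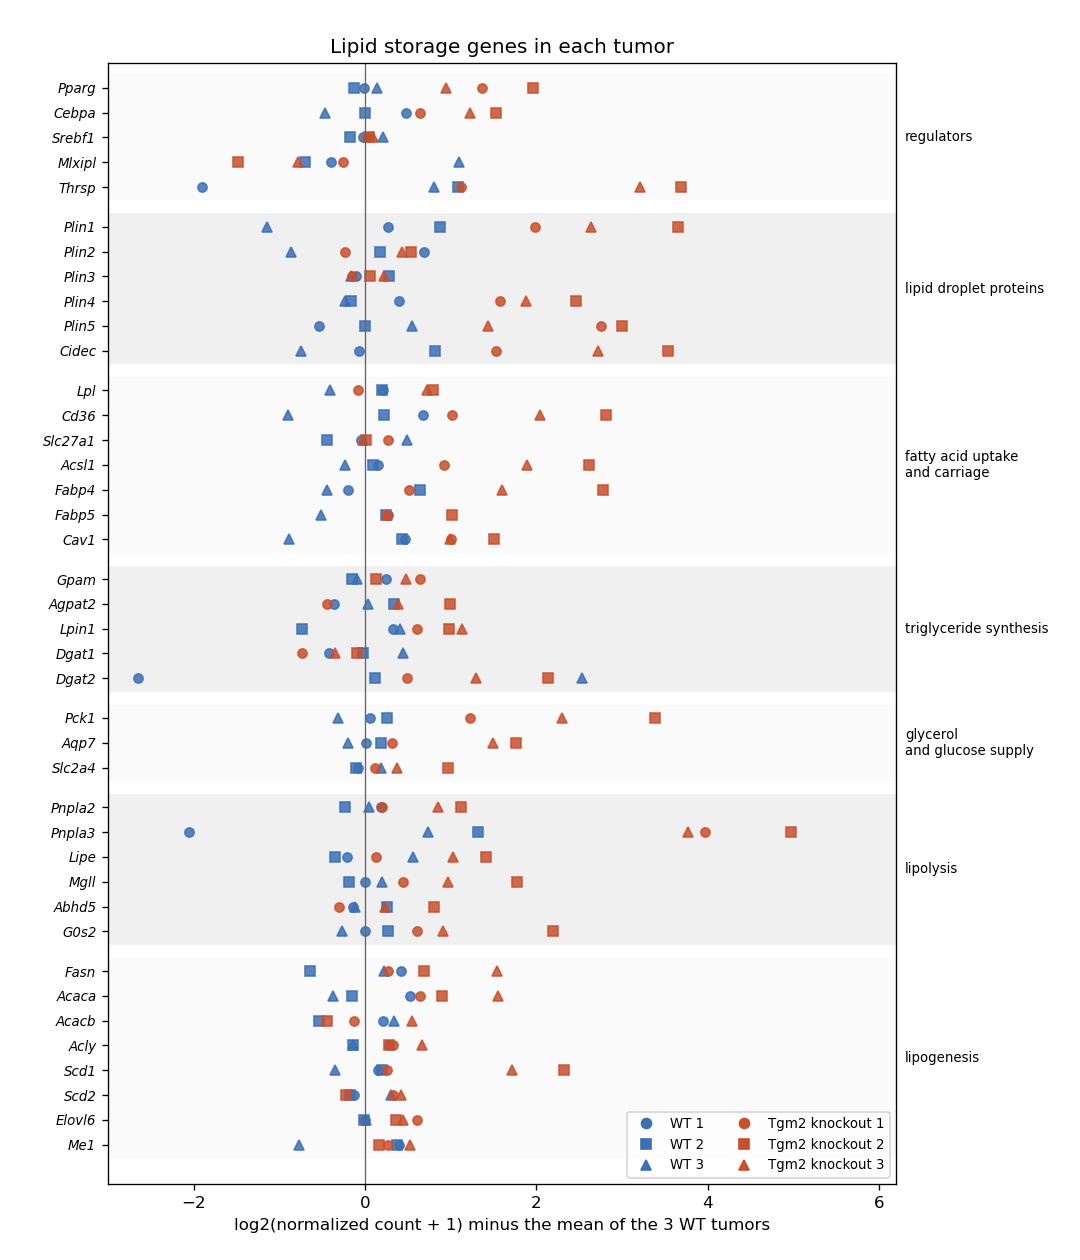
Each of the 40 members in each tumor, as log2(normalized count + 1) minus the mean of the 3 WT tumors (blue WT, red *Tgm2* knockout, shape for the tumor number), by step. Knockout tumor 2 is the highest of the 6 tumors for 24 members and knockout tumor 3 for 7, of which 6 belong to lipogenesis. The same counts over all genes were not made.

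Closely related members were set side by side per kb of their longest coding transcript, which makes levels comparable between genes. Per kb, *Plin2* had a mean of 3898 normalized counts in WT and 4313 in *Tgm2* knockout tumors, far above *Plin1* (115 and 750), *Plin4* (78.6 and 313) and *Plin5* (3.89 and 23.9). *Fabp4* was above *Fabp5* in both groups, with 4798 and 17182 per kb against 716 and 1022. *Scd2* exceeded *Scd1* in WT (5699 against 1874 per kb), while in knockout tumors the means were 6464 and 5841. In the perilipin, *Fabp* and *Scd* families the member best known from adipocytes had the larger log2 fold change. This did not hold for the lipase relatives, where *Pnpla2* (ATGL) had 0.72 and *Pnpla3* 4.24. The other plotted pairs were *Dgat1* (-0.39) with *Dgat2* (1.31), and *Acaca* (1.03) with *Acacb* (-0.01). The difference between relatives was not tested.

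**Figure D3:**
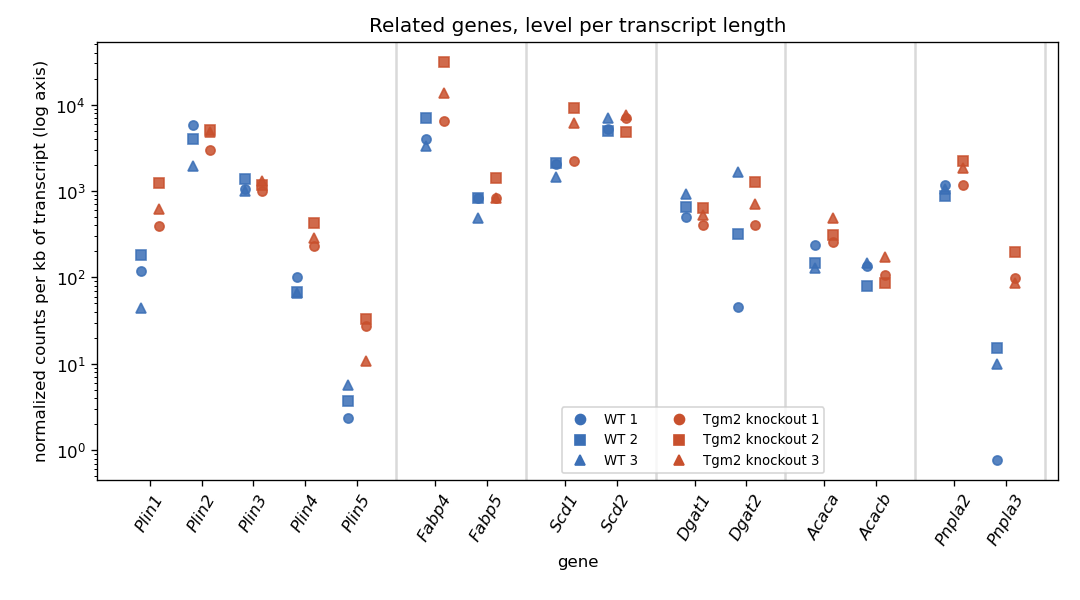
Normalized counts per kb of the longest coding transcript (log axis) of related members in each tumor, blue for WT and red for *Tgm2* knockout. *Plin2*, *Plin3*, *Fabp4*, *Fabp5*, *Scd2*, *Dgat1*, *Dgat2* and *Acacb* overlap between the groups, while *Plin1*, *Plin4*, *Plin5*, *Scd1*, *Acaca*, *Pnpla2* and *Pnpla3* do not.

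The order of the tumors recurred among the members. Of the 21 members past an unadjusted p of 0.05, 18 were highest in knockout tumor 2, 2 in knockout tumor 3 and 1 in knockout tumor 1, and knockout tumor 1 was the lowest of its group for 16. These 21 were picked as higher in knockout tumors, so a peak in a knockout tumor was largely given. The order of the tumors over all genes was not computed, so these counts have no background beside them. Summed over all 40 members, the normalized counts were 157821, 147714 and 132891 in WT and 169388, 275516 and 252698 in *Tgm2* knockout tumors, which is 0.453%, 0.418% and 0.392% of the tumor's total in WT and 0.524%, 0.769% and 0.670% in knockout tumors. Leaving out 1 tumor at a time, 13 of the 21 stayed past an unadjusted p of 0.05 in all 6 fits, namely *Pparg*, *Cebpa*, *Plin1*, *Plin4*, *Plin5*, *Cidec*, *Cd36*, *Acsl1*, *Pck1*, *Pnpla3*, *Mgll*, *Cav1* and *Acaca*. *Lipe* did so in 2 of 6, *Lpin1*, *Pnpla2* and *Scd1* in 3, *G0s2* in 4, and *Thrsp* and *Fabp4* in 5. Of the 21 log2 fold changes, 6 moved by over 1.5 times without 1 tumor. They were 0.72 for *Cav1* without WT tumor 3, 1.72 for *Thrsp* without WT tumor 1 and 0.53 for *Lpin1* without WT tumor 2. Without knockout tumor 2 they were 1.06 for *Fabp4*, 0.71 for *Mgll* and 0.76 for *G0s2*.

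Adipocyte identity genes outside the member list, whose own part in fat storage and lipolysis was not tested, were also mostly highest in knockout tumor 2. Of 12 such genes 9 were higher at an unadjusted p of 0.05 and 0 were lower, against 3.40% and 2.38% of all genes. Their median log2 fold change was 1.58, and 10 were highest in knockout tumor 2. Their summed level was 8101, 18499.6 and 7405 normalized counts in WT and 13262, 81611 and 35621 in *Tgm2* knockout tumors. *Cfd*, the gene of the secreted protein adipsin, was the most abundant and measured 5188, 14147 and 5127 against 7697, 62686 and 24263 (1.65, standard error 0.72). Its log2 fold change was as low as 0.92 without 1 tumor, and it passed an unadjusted p of 0.05 in 2 of those 6 fits. With the adipocyte covariate, which includes *Cfd*, the value was -1.45. *Adipoq*, the hormone adiponectin, had 932, 2066 and 786 against 1691, 9593 and 5412 (1.95, standard error 0.61). For both, WT tumor 2 lay above knockout tumor 1, as it did for *Fabp4*. *Lep*, the satiety hormone that fat cells release, was the exception that passed the limits of the study, with 43.5, 40.7 and 18.2 in WT and 334, 494 and 512 in knockout tumors (3.74, standard error 0.47, adjusted p = 0.0393 from limma). With the adipocyte covariate, of which *Lep* is itself a part, its log2 fold change was 3.21 and the adjusted p was 0.472 from limma.

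**Figure D4:**
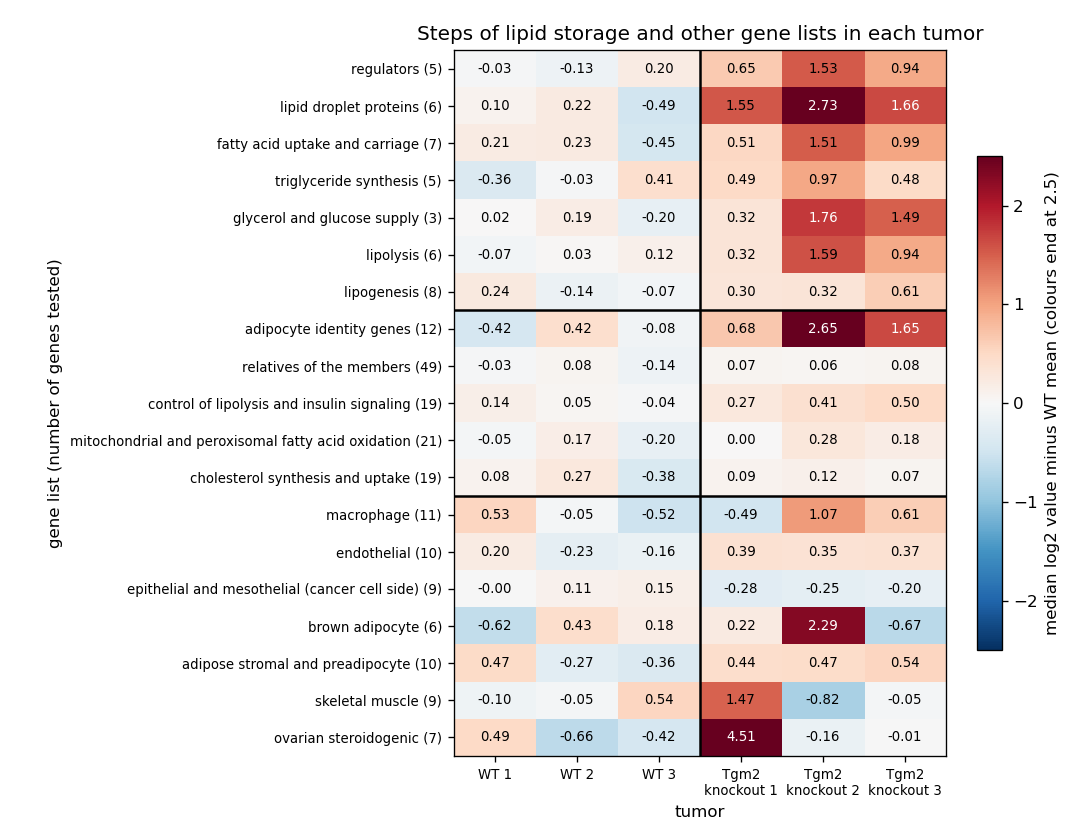
Median of log2(normalized count + 1) minus the mean of the WT tumors, for each step of the members, other pathways and marker lists in each tumor; the number of genes stands in brackets, and the colours end at 2.5 while the number in each cell is the value. The droplet, uptake and lipolysis steps and the adipocyte identity genes are highest in knockout tumor 2, lipogenesis in knockout tumor 3, and the ovarian steroidogenic list in knockout tumor 1.

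Genes around the members were described with lists of the same pathways. Of 49 relatives of the members, from other acyltransferases to other fatty acid carriers, 2 were higher and 2 were lower at an unadjusted p of 0.05. Of all genes, 3.40% were higher and 2.38% were lower, so both counts were near the background. The median log2 fold change of the relatives was 0.09. The higher ones were *Bscl2* (0.68, standard error 0.24), the gene of seipin, and *Fitm2* (0.88, standard error 0.24), which both help droplets to form at the endoplasmic reticulum. The lower ones were the rare *Mogat2* (-2.76), a monoglyceride acyltransferase, and *Cav3* (-2.08), the caveolin of muscle. The most abundant relatives, *Me2*, *Acsl4* and *Acsl5*, had log2 fold changes of 0.12, -0.13 and -0.11 and overlapping groups.

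Among 19 genes that control lipolysis and insulin signaling, 5 were higher and 0 were lower, with a median log2 fold change of 0.36. The shares of all genes were 3.40% higher and 2.38% lower. *Prkar2b*, the regulatory subunit of protein kinase A that predominates in fat, had 1028, 935 and 456 normalized counts in WT and 3706, 1999 and 2135 in *Tgm2* knockout tumors (1.72, standard error 0.36). *Adora1*, the adenosine receptor that restrains lipolysis, had 1579, 1177 and 1414 against 1961, 2407 and 3625 (0.90, standard error 0.26). *Npr3*, which clears natriuretic peptides, had 159, 208 and 177 against 901, 478 and 295 (1.48, standard error 0.42). Unlike most members, *Prkar2b* and *Npr3* were highest in knockout tumor 1 and *Adora1* in knockout tumor 3. The lactate receptor *Hcar1* (1.72, standard error 0.68) and the phosphodiesterase *Pde3b* (0.59, standard error 0.24), which both curb lipolysis, completed the 5. Of 21 genes of mitochondrial and peroxisomal fatty acid oxidation, 1 was higher, the coactivator *Ppargc1a* (1.03, standard error 0.35), and the median was 0.11. Of 19 genes of cholesterol synthesis and uptake, 0 were higher and 0 were lower, and the median was 0.11.

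Markers of other cells were read in the same tumors. At an unadjusted p of 0.05, 3.40% of all genes were higher and 2.38% were lower, so 1 gene past it in a short list says little. The 11 macrophage genes summed to 90474, 67547 and 45232 normalized counts in WT and 44287, 138285 and 98751 in *Tgm2* knockout tumors, with *Lyz2* the most abundant, and 1 of them (*Mertk*, 0.79) was higher at an unadjusted p of 0.05. Knockout tumor 2 had the highest sum of macrophage genes also, and the sums of knockout tumor 1 and WT tumor 3 were the lowest and close to each other. The 10 endothelial genes summed to 11927, 9539.8 and 9832 against 12147, 12269 and 12431, with 1 higher (*Cdh5*, 0.75). The 9 epithelial and mesothelial genes, of which *Wt1* was the most abundant, summed to 71662, 83285 and 77394 in WT and 64005, 59681 and 69989 in knockout tumors and had a median log2 fold change of -0.40, with 0 past an unadjusted p of 0.05. Of 10 adipose stromal and preadipocyte genes 3 were higher (*Pdgfra*, *Dlk1* and *Zfp423*), with a median of 0.52. Brown adipocyte genes gave 0 of 6, and *Ucp1*, their defining gene, was at 183 in knockout tumor 2 and at 3.79 or less in the other 5 tumors. Of 9 skeletal muscle genes 1 was higher (*Actn3*), with a median of -0.02. Ovarian steroidogenic genes gave 0 of 7, but *Cyp11a1*, the first enzyme of steroid synthesis, had 8648, 208 and 158 in WT and 22480.4, 209 and 178 in knockout tumors, so WT tumor 1 and knockout tumor 1 stood apart. Without these 2 tumors, a check chosen after the data were seen, the median log2 fold change of the members was 1.17 and 21 members were higher at an unadjusted p of 0.05. In the same fit 822 of all genes were higher and 775 were lower at that p, beside 668 and 469 with all tumors. The part of macrophages, stroma and ovarian tissue in the lipid genes was not tested beyond these values.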

How the data were processed

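Bulk polyA RNA of 3 WT and 3 *Tgm2* knockout tumors was compared, grouped by the genotype labels. Per the submitters' processing notes and the study's methods, the authors quantified paired reads with kallisto 0.46.2 on GRCm38, assigned transcripts to genes with biomaRt, filtered weakly expressed genes out and scaled with DESeq2 size factors. The deposited table is labelled TPM, but its values are a depth-scaled signal (normalized counts), since the columns do not sum to a fixed total; the tests had been planned for TPM and were kept, because they work on log2 values. A value of a few normalized counts rests on a few reads.

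A pseudocount of 1 was added, log2 was taken (which understates the change of low genes), and genes with at least 1 in at least 3 tumors were fitted in 1 model over all genes with limma 3.58.1 in R 4.3.3 (trended empirical Bayes, two-sided, Benjamini-Hochberg adjustment). Python 3.11.15 and scipy 1.17.1 were used for the tables and the exact permutation test, and the model was tested on simulated data. The labels number the replicates without saying more on their origin, so p-values measure the spread between these tumors. The members and gene lists were chosen with earlier results of these data known. Values in every tumor were given for members with an unadjusted p under 0.05 and for the most abundant member of each step; of other lists, genes past that p or among the 3 most abundant were named, and *Ucp1*, *Slc27a2* and *Epcam* were named after their values were seen. Positions are from GENCODE M21 (GRCm38) and upstream sequences from RefSeq. The alternatives changed the pseudocount, filter, scaling, replicate block, tumor weights, variance trend and covariate and left out tumors; *Slc27a5*, *Fabp1*, *Elovl3* and *Zic1* had no value in the table and *Myh2* and *Fshr* did not pass the filter.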

Additional observations from a re-analysis of the deposited data

How the results depend on the processing

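Over 17 alternatives, 589 of the 680 comparisons of a single member kept their direction and their side of an unadjusted p of 0.05, 46 lost it, 11 gained it and 34 changed sign. That total hides unlike alternatives. Median-of-ratios scaling could change almost nothing, since its factor was 1.0018 in every tumor, and all 40 members stayed the same. With the adipocyte covariate 8 members stayed the same, 15 lost that p, 1 gained it and 16 changed sign. The count of all genes past the adjusted limits was the least stable value: it was 20, and 5 with the replicate numbers as a block, 4 without the variance trend, 0 with the adipocyte covariate, 12 without WT tumor 1 and knockout tumor 1 (chosen after seeing the data), and between 2 and 15 when 1 tumor was left out (2 without WT tumor 2, 8 without WT tumor 1 and 11 without knockout tumor 2). The replicate block gave 22 members that were higher, beside 701 of all genes. Same-numbered tumors had correlations of -0.20, 0.28 and -0.31, and tumors of unlike number between -0.23 and 0.36. These values did not show a pairing by number, but with 3 tumors per group they cannot exclude 1.

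With the adipocyte covariate, 2 members were higher and 2 were lower in place of 21 and 0, beside 4.21% and 5.17% of all genes in that fit. The median log2 fold change was then 0.40 for the members, 0.43 for regulators, 0.75 for droplet proteins, 0.41 for uptake, -0.74 for triglyceride synthesis, -0.087 for glycerol and glucose supply, -0.0074 for lipolysis and 0.64 for lipogenesis. Over all genes it was 0.03. The covariate turned the sign of *Abhd5* (-0.83), *Acacb* (0.59), *Agpat2* (-1.13), *Aqp7* (-0.087), *Dgat2* (-0.74), *Fabp4* (-0.62), *Fabp5* (-0.19), *G0s2* (-0.22), *Lipe* (-0.070), *Lpl* (-0.29), *Mlxipl* (0.43), *Plin2* (-0.31), *Plin3* (-0.29), *Scd1* (-0.34), *Slc2a4* (-0.18) and *Thrsp* (-0.45). Tumor weights turned *Acacb* (0.078), and leaving out WT tumor 1 with knockout tumor 1 turned *Acacb* (0.15) and *Slc27a1* (-0.028) and gave a median of 1.17 for the members.

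Without 1 tumor, the number of members that were higher ranged from 15 (without knockout tumor 2) to 22 (without knockout tumor 1). Of all genes, 563 were higher and 413 were lower at that p without knockout tumor 2. Without knockout tumor 1, 649 were higher and 684 were lower. The median of the members ranged from 0.65 to 1.17, that of uptake from 0.72 to 1.40 and that of triglyceride synthesis from 0.13 to 0.69. Signs changed for *Abhd5* (-0.036 to 0.51), *Acacb* (-0.28 to 0.21), *Agpat2* (-0.029 to 0.69), *Dgat2* (-0.018 without WT tumor 1 to 2.57 without WT tumor 3, beside 1.31 with all tumors), *Me1* (-0.067 to 0.51), *Plin2* (-0.19 to 0.59), *Plin3* (-0.049 to 0.18), *Slc27a1* (-0.14 to 0.33) and *Srebf1* (-0.032 to 0.16). The causes were not tested.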

Other observations

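WT tumor 3 held the highest level of some lipid genes, while it was the lowest tumor for 6 of the 7 members of fatty acid uptake and carriage. *Dgat2* measured 104, 711 and 3789 normalized counts in WT and 923, 2883 and 1603 in *Tgm2* knockout tumors, and *Mlxipl* measured 673, 547 and 1898 against 739, 316 and 517. Among the relatives of the members, *Slc27a2*, a fatty acid transporter, had 20.4, 26.4 and 749 in WT and 15.1, 23.6 and 2.74 in knockout tumors, and *Mogat2* had 59.6, 29.2 and 272 against 10.8, 31.3 and 3.27. The epithelial gene *Epcam* was highest in the same tumor, with 90.5, 959 and 8047 in WT and 1307, 1063 and 201 in knockout tumors. These genes were picked after their values were seen, and the pattern of WT tumor 3 was not tested.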
